A study of Mus musculus with 70 samples.

Results

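The genes described here are the 6 genes named in connection with the FTO obesity locus, Fto, Irx3, Irx5, Rpgrip1l, Aktip and Rbl2, which were looked up by name among the 34677 genes of a mouse brain expression atlas and were all found. Their levels were followed over all 24 groups of the atlas to see which genes of the locus had like regional profiles. The atlas held 70 RNA-seq libraries: 57 from 18 regions punched from brains of C57BL/6NTac males at postnatal day 56, 9 from 4 regions of C57BL/6NTac embryos at E14.5, and 4 from the C57BL/6 mouse embryonic stem cell clones mESC_B6-1 and mESC_B6-2, freed of feeder cells. The labels name no treatment or transgene in any group. Each adult library pooled punches from several mice, with 1 library of the nucleus accumbens (ACB) drawn from a single mouse, and each embryonic library pooled embryos. Libraries of different regions drew on the same small set of mice, so regions were not independent animals and p-values measure the spread between these pooled libraries.

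The adult regions were the anterior cingulate area (ACA), frontal pole (FRP) and entorhinal area (ENT) of the cortex, ACB, the arcuate (ARH), dorsomedial (DMH), ventromedial (VMH), paraventricular (PVH) and lateral (LHA) parts of the hypothalamus, the ventral tegmental area (VTA), and, in the hindbrain, the parabrachial nucleus (PB), nucleus of the solitary tract (NTS) and dorsal-vagal complex (DVC). The cerebellum gave its nuclei (CBN) and the lobules CENT2, CUL4-5, FL (flocculus) and UVU (uvula). The embryonic regions were forebrain (F, 1 library), midbrain (M, 2), hindbrain (H, 3) and terminal and peduncular hypothalamus (THy-PHy, 3). PVH, VMH and each mESC clone had 2 libraries, CENT2, CUL4-5, DMH, FL and NTS had 4, and the other adult regions had 3.

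Introns of human FTO carry common variants linked to body weight, and work in other systems has connected them both to FTO itself and to genes on either side of it. Fto encodes an enzyme that removes methyl groups from adenosine in RNA. Irx3 and Irx5 encode Iroquois homeobox transcription factors that pattern the neural tube, Rpgrip1l encodes a protein of the ciliary transition zone, Aktip encodes a partner of the Hook proteins that tie cargo to dynein, and Rbl2 encodes the pocket protein p130, a partner of E2F factors in cells that have left the cell cycle.

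In the mouse genome (GRCm38, GENCODE annotation) the 6 genes lay on chromosome 8 in the order Rbl2, Aktip, Rpgrip1l, Fto, Irx3, Irx5. Rbl2 (ENSMUSG00000031666.15) occupied 91070057 to 91123844 on the plus strand, and Aktip (ENSMUSG00000031667.16) occupied 91111784 to 91199976 on the minus strand, so that their annotated spans overlapped tail to tail by 12061 bp. Rpgrip1l (ENSMUSG00000033282.14; 91217030 to 91313262, minus strand) and Fto (ENSMUSG00000055932.15; 91313525 to 91668439, plus strand) pointed away from each other, with starts 263 bp apart. Irx3 (ENSMUSG00000031734.13; 91798525 to 91802067, minus strand) started 488542 bp beyond the Fto start, and Irx5 (ENSMUSG00000031737.11; 92357625 to 92376286, plus strand) started a further 555558 bp away. The annotated antisense gene Irx3os overlapped Irx3 and was not analysed here.

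Part of the sequence between the starts of Fto and Rpgrip1l is shown because it is the one stretch that the promoter windows of 2 of the genes shared. RefSeq starts Rpgrip1l at 91313222, where the GENCODE annotation above starts it at 91313262, and both start Fto at 91313525. The RefSeq promoter windows, from 250 bases before to 50 bases after each start, covered 5 of the 6 genes, and the windows of Fto and Rpgrip1l had 198 bases in common. These bases lie at chr8:91313275-91313472 (GRCm38.p6) and are printed on the Fto strand, with Rpgrip1l read on the opposite strand; the capitals mark the longest stretch that they hold more than once with up to 2 mismatched letters, CTGGGAANNGTAGTTCT.
Fto and Rpgrip1l, shared upstream bases: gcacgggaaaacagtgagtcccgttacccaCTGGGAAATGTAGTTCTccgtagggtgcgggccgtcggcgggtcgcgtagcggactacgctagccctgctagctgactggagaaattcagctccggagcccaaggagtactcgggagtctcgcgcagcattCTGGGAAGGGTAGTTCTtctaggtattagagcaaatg
This rule was set after the sequence had been read. Searched on both strands, the stretch was found in 27 of 32851 promoter windows (0.1%), those of Fto and Rpgrip1l included, and in none of the windows of Rbl2, Aktip and Irx3. CCAAT (37.4% of all windows), GGGCGG (35.7%), TATAAA (13.6%) and CACGTG (7.2%), each searched on both strands, had no match in the windows of Fto or Rpgrip1l. Whether any of these letters act in the tissues studied was not tested.

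Total estimated counts per library ranged from 9074581 to 22229582, with a median of 17016935, so genes as low as Irx3 and Irx5 rested on 0 to 1562 counts a library. Summed marker levels followed the region labels in the adult: the cortical list was at 260 to 381 TPM, the length-scaled transcript level, in ACA, FRP and ENT and at most 126 TPM in other adult regions, and the hypothalamic list was at 65.4 to 5992 TPM in the hypothalamic regions and at most 10.3 TPM in other adult regions. The hindbrain list was at 67.1 to 134 TPM in PB, NTS and DVC but also at 74.3 TPM in CBN. The libraries that stood apart from the rest were 5 in number: VTA replicate 1, H replicates 1 and 2, and THy-PHy replicates 2 and 3. In these 5 libraries 34.2% to 62.8% of the Fto level was assigned to the non-coding transcript Fto-205, against 1.67% to 25.6% in the other 65, and mitochondrial genes took 8.37% to 39.6% of TPM, against 2.69% to 14.2%. Calls of the locus genes that drew on these libraries are given below with and without them.

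The clearest regional pattern of the locus was shared by Irx3 and Irx5, which were close to absent from the cortical areas and ACB and present in all other adult regions. In the 12 libraries of ACA, FRP, ENT and ACB, Irx3 was at 0 to 0.245 TPM (0 to 5 counts a library) and Irx5 at 0 to 0.132 TPM (0 to 3 counts). In the other 45 adult libraries, Irx3 was at 0.992 to 23.2 TPM (22 to 468 counts) and Irx5 at 0.987 to 8.31 TPM (21 to 173 counts), so the ranges of both genes did not overlap. Irx5 had 0 counts in all 3 libraries of ACA and all 3 of FRP; against a floor of 3 counts over each group, its level was at least 20.2-fold lower in ACA and at least 22.6-fold lower in FRP than the 1.27 CPM (counts scaled to library size) of PVH, the lowest of the other regions. In bulk tissue, fewer cells of a type and less RNA per cell cannot be told apart.

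Irx3 was at 23.2, 22.1 and 19.3 TPM in the 3 UVU libraries, its highest adult region (21.6 ± 2.01 TPM, SD, n = 3). PB followed at 15.4 ± 1.43 TPM (n = 3), and CBN at 14.52 ± 2.43 TPM (n = 3). UVU did not overlap PB, and from PB down to ARH (6.85 ± 1.05 TPM, n = 3) each of 9 regions overlapped the next. LHA, CUL4-5 and VMH formed a lower step between 3.94 and 2.60 TPM. PVH was lower still, at 1.02 and 0.992 TPM in its 2 libraries, below all libraries of VMH and above all cortical and ACB libraries.

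Irx5 was at 6.62, 7.69 and 7.02 TPM in PB (7.11 ± 0.543 TPM, n = 3), its highest adult region. The next regions were CENT2 (6.11 ± 1.64 TPM, n = 4) and CBN (5.39 ± 1.44 TPM, n = 3), and each region overlapped the next from PB down to VMH (1.77 ± 0.682 TPM, n = 2). PVH was again the lowest region with clear signal, at 0.987 and 1.03 TPM. Within the hypothalamus both genes were highest in DMH (Irx3 7.00 ± 1.04 TPM and Irx5 4.08 ± 0.998 TPM, n = 4) and ARH, and lowest in PVH.

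**Figure D1:**
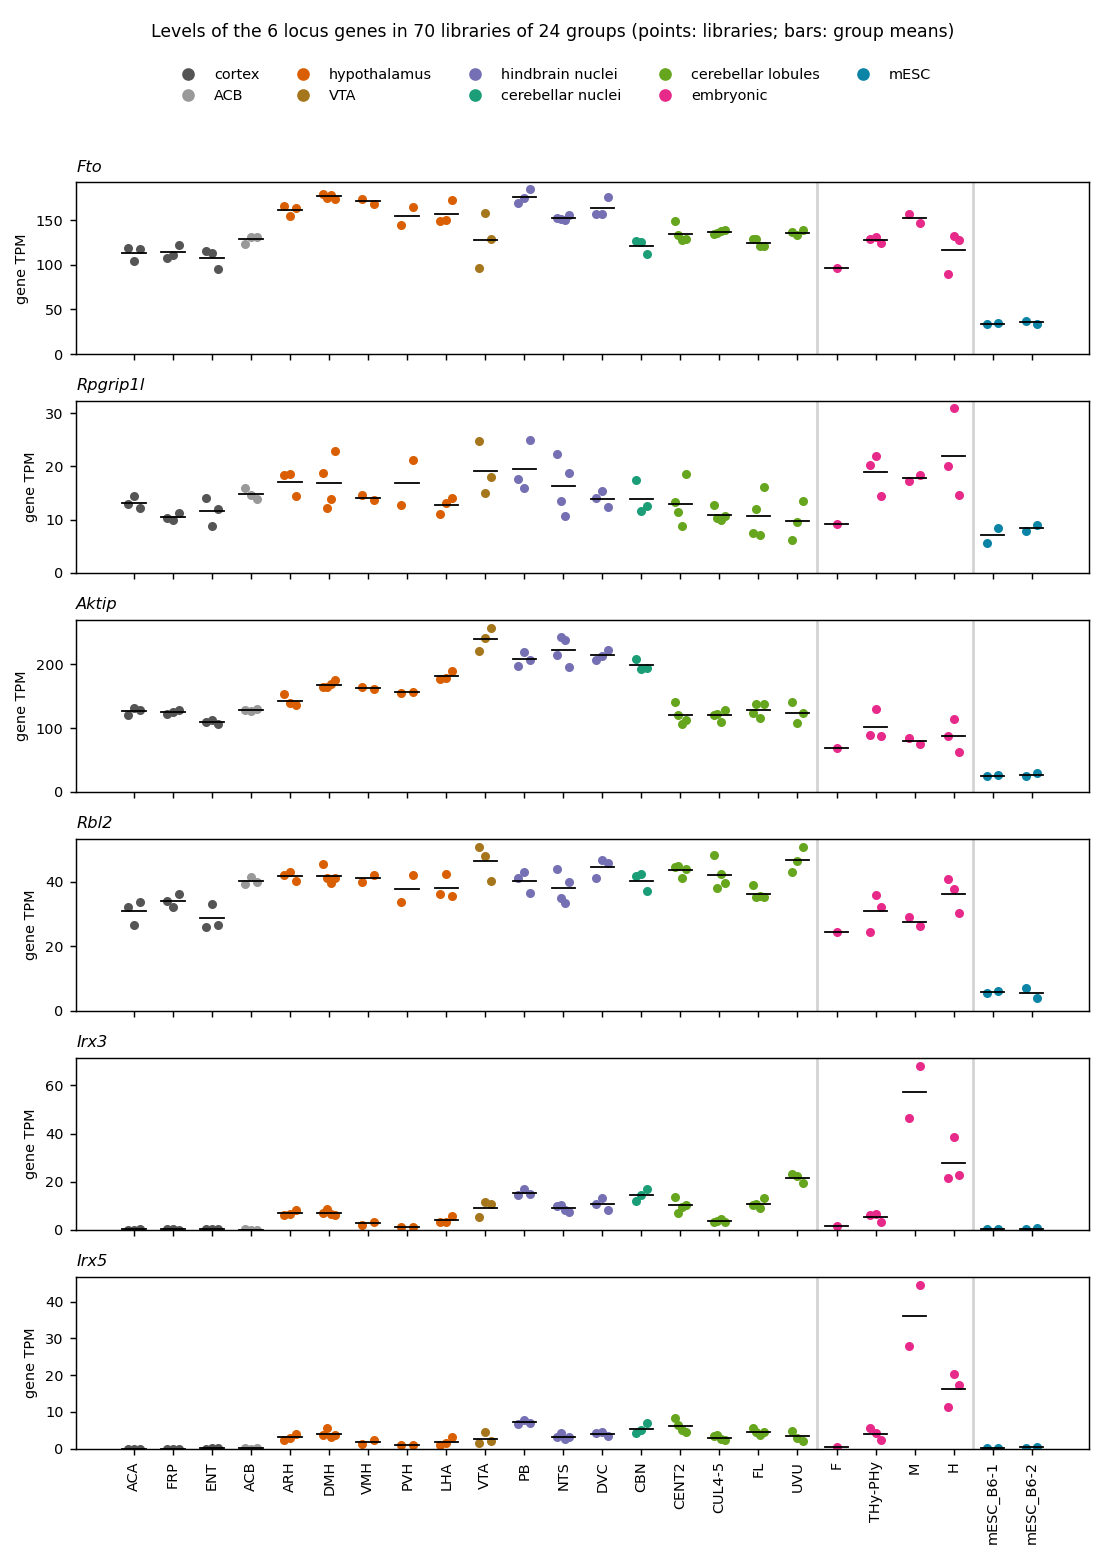
Gene TPM (vertical axes, linear) of the 6 locus genes in 70 libraries, arranged by group; points are libraries, bars are group means, and vertical lines separate the adult, embryonic and mESC groups. Irx3 and Irx5 lie near 0 in ACA, FRP, ENT and ACB and reach 57.3 and 36.2 TPM in the embryonic midbrain, whereas Fto, Aktip, Rbl2 and Rpgrip1l were present in every group.

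The balance of the paired Iroquois genes was not the same everywhere. TPM is scaled for transcript length, so the levels of the genes can be set against each other within a library. The ratio of Irx3 to Irx5 was 2.17 ± 0.05 (SD, n = 3) in PB, 2.77 ± 0.33 (n = 4) in NTS and 1.75 ± 0.19 (n = 4) in DMH. In PVH it was 0.997 ± 0.052 (n = 2), but on only 24 and 22 counts of Irx3 and 21 and 21 of Irx5, so the SD understates its uncertainty. In UVU it was 7.06 ± 1.94 (n = 3, 4.97 to 8.81), with Irx5 at 4.67, 3.00 and 2.19 TPM. The neighbouring cerebellar lobules CENT2, FL and CUL4-5 had ratios of 1.70 ± 0.47, 2.39 ± 0.44 and 1.24 ± 0.41 (n = 4 each), and no library of these lobules reached the lowest UVU value. The next highest adult ratio was in VTA, at 3.72 ± 1.35 (n = 3; 2.44 to 5.14), and its highest library overlapped the UVU range. Ratios in the embryo were 1.69 ± 0.32 in H (n = 3), 1.60 ± 0.10 in M (n = 2) and 1.31 ± 0.19 in THy-PHy (n = 3). The libraries of H and THy-PHy that did not stand apart in transcript makeup, 1 in each, gave the lowest ratio of their groups, 1.33 and 1.12. The choroid plexus markers, whose sum ranged from 57.1 to 2154 TPM between the 3 UVU libraries, differed far more between these libraries than Irx3 did; their part in the ratio was not tested.

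**Figure D2:**
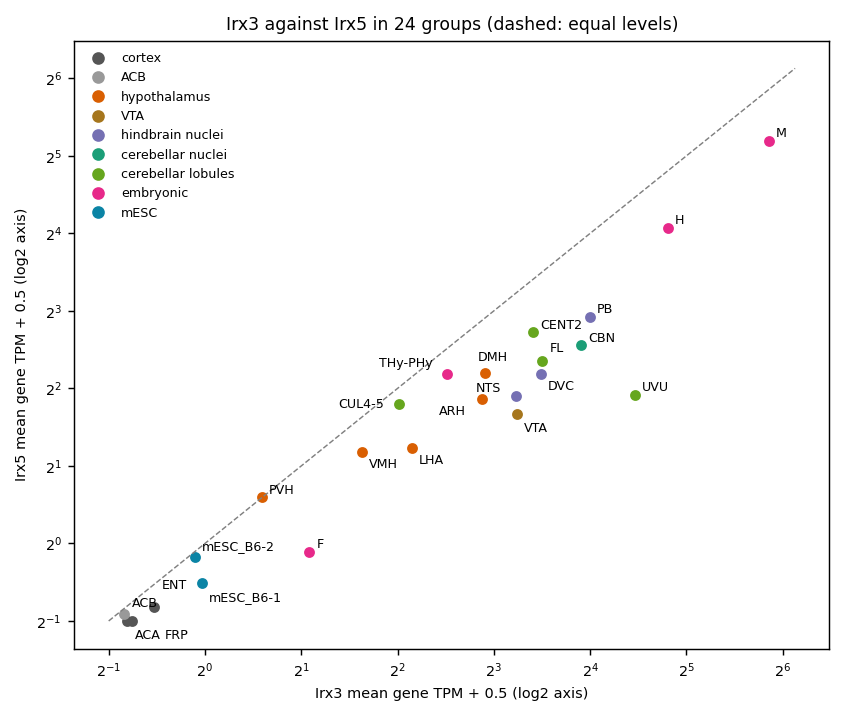
Mean TPM + 0.5 of Irx3 (horizontal, log2 axis) against Irx5 (vertical, log2 axis) in the 24 groups, 1 point per group, with a dashed line of equal levels. Most groups run parallel to the line below it, PVH lies on it, and UVU lies farthest from it among adult regions, with a ratio of 7.06.

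Fto was far more even. Its adult means ran from 177 ± 2.75 TPM in DMH (180, 175, 179 and 174 TPM) to 108 ± 10.9 TPM in ENT (115, 113 and 95.4 TPM), a ratio of 1.64 between highest and lowest region. The 8 regions with the highest means were all 5 hypothalamic regions and the 3 hindbrain nuclei, from DMH down to NTS (153 ± 2.62 TPM, n = 4). The only pair of neighbours in the order that did not overlap was NTS and CUL4-5 (137 ± 1.87 TPM, n = 4). The cortical areas were the 3 lowest regions, at 95.4 to 123 TPM in 9 libraries, against 144 to 180 TPM in 14 hypothalamic libraries, without overlap. In VTA the libraries spread from 96.3 TPM in replicate 1, which stood apart in transcript makeup, to 158 and 129 TPM in replicates 2 and 3.

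Aktip differed most in level among the genes that were present everywhere. It was at 221, 241 and 258 TPM in VTA (240 ± 18.2 TPM, n = 3) and at 109, 113 and 107 TPM in ENT (109.5 ± 2.95 TPM, n = 3), a ratio of 2.19. VTA, NTS, DVC, PB and CBN formed an upper group at 193 to 258 TPM. The hypothalamic regions lay in the middle, from LHA (182 ± 7.42 TPM, n = 3) to ARH (143 ± 9.05 TPM, n = 3), and the cerebellar lobules, cortex and ACB lay at 106 to 141 TPM. Neighbours in the order did not overlap at 5 places, which set off LHA, DMH with VMH, and PVH as steps between these groups. ARH did not overlap its neighbours PVH and ACB, but at 137 to 153 TPM it overlapped libraries of FL, UVU and CENT2. The summed level of 4 oligodendrocyte markers (Mbp, Mog, Mag, Mobp) was also highest in CBN, VTA and NTS (9850 to 11488 TPM) and lowest in ACA (478 TPM), with r = 0.79 with Aktip over the 18 adult regions; its part in the Aktip profile was not tested.

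In TPM, Rpgrip1l and Rbl2 varied least between regions relative to their spread between libraries. Rpgrip1l means ran from 19.6 ± 4.81 TPM in PB (17.7, 16.0 and 25.0 TPM) to 9.73 ± 3.63 TPM in UVU (6.24, 9.48 and 13.5 TPM). In these UVU libraries the non-coding Rpgrip1l-207 held 0%, 0% and 40.1% of Rpgrip1l TPM, while Rpgrip1l had 269, 309 and 315 counts. Over all 70 libraries the share of Rpgrip1l-207 ran from 0% to 46.9%, and its part in the TPM spread was not tested. Rbl2 means ran from 46.6 ± 3.99 TPM in UVU (42.8, 46.2 and 50.8 TPM) to 28.6 ± 4.01 TPM in ENT (26.0, 33.2 and 26.6 TPM). For both genes all 17 pairs of neighbouring regions overlapped, although the ends of the order did not.

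On log2 TPM, differences between regions accounted for 98.3% of the variance between adult libraries for Irx3, 95.7% for Irx5 and 94.9% for Aktip. They accounted for 84.7% for Fto, 74.9% for Rbl2 and 51.1% for Rpgrip1l, against a median of 74.2% over 17955 genes. The SD of the log2 region means was 1.82 for Irx3 and 1.35 for Irx5, larger than for 98.7% and 95.9% of these genes. It was 0.36 for Aktip, 0.29 for Rpgrip1l, 0.23 for Fto and 0.19 for Rbl2, all under the median of 0.41.

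The question of which genes of the locus shared a regional profile was addressed by Pearson's r of log2(mean TPM + 0.5) over the 18 adult regions, which share mice and are given as a description. Of the 15 pairs of genes, 2 reached r = 0.7. Irx3 and Irx5 were at r = 0.96 (Spearman's rho 0.90), and each was the nearest gene to the other among 17954 genes. Irx3 and Rbl2 were at r = 0.70 (rho 0.52), and Rpgrip1l and Aktip came next at 0.69 (rho 0.69). Fto had r = 0.47 with Irx3, 0.56 with Irx5, 0.51 with Aktip, 0.53 with Rbl2 and 0.55 with Rpgrip1l, the gene that starts 263 bp away. Rpgrip1l was 2553rd among all genes in likeness to Fto, Fto was 1098th in likeness to Rpgrip1l, and 5.98% of genes had r of at least 0.7 with Fto. On CPM in place of TPM, Fto had r = 0.68 with Rpgrip1l, 0.71 with Aktip, 0.46 with Irx3, 0.50 with Irx5 and 0.48 with Rbl2. Without the libraries that stood apart, Fto and Rpgrip1l were at 0.65 on TPM.

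Because Irx3 and Irx5 fell into low and expressed regions, the same values were computed over the 14 adult regions other than ACA, ACB, ENT and FRP, a choice made after seeing the data. Irx3 and Irx5 were at r = 0.82 there, and Rpgrip1l and Aktip at 0.68, close to their value over all regions. All other pairs were below 0.5: Fto had r = -0.30 with Irx3, -0.18 with Irx5, 0.24 with Aktip, -0.10 with Rbl2 and 0.47 with Rpgrip1l, and Irx3 and Rbl2 were at 0.38. The positive values of Fto with the Iroquois genes over 18 regions thus came with the 4 regions in which the Iroquois genes were near 0 and Fto was low or middling. Over the 13 regions outside the cerebellum, which keep those 4 regions, Fto had r = 0.77 with Irx3 and 0.86 with Irx5, and 9 of the 15 pairs reached 0.7. The share of all genes with such values over these 13 regions was not computed, so that count has no background to be read against.

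**Figure D3:**
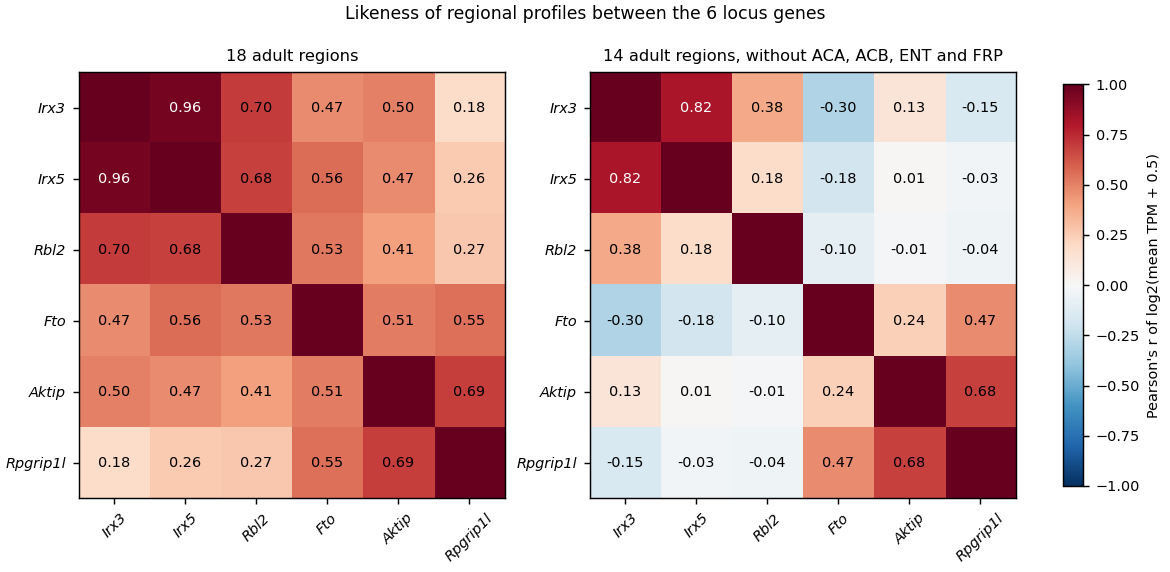
Pearson's r of log2(mean TPM + 0.5) for the 15 pairs of locus genes (each shown on both sides of the diagonal; color from -1 to 1), over 18 adult regions (left) and over the 14 adult regions without ACA, ACB, ENT and FRP (right). Irx3 with Irx5 (0.96 and 0.82) and Rpgrip1l with Aktip (0.69 and 0.68) stay high in both panels, while Fto with Irx3 goes from 0.47 to -0.30.

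The genes nearest to each member over the 18 regions lay elsewhere in the genome, except for Irx3 and Irx5. Nearest to Fto were Cct5 (r = 0.970), which encodes a chaperonin subunit, Poglut1 (0.954), which encodes a glucosyltransferase acting on Notch, and Fam13b (0.943). After Irx5, Irx3 was nearest to Pnpla2 (0.942), the adipose triglyceride lipase gene, and Fignl2 (0.941), and Irx5 to Bbox1 (0.953), an enzyme of carnitine synthesis, and Itpkb (0.947). Aktip was nearest to Bcat1 (0.961), Fkbp2 (0.959) and Agtr2 (0.948), Rpgrip1l to Enah (0.881), Morf4l1 (0.858) and Bard1 (0.839), and Rbl2 to Pmpcb (0.897), Cwc15 (0.890) and Polr3b (0.871). Of the Iroquois genes of the other cluster, Irx1 and Irx2 had r = 0.88 and 0.90 with Irx3 and 0.91 each with Irx5. Irx4 of that cluster had only 0.58 and 0.59, and Irx6, the next Iroquois gene along the locus, 0.55 and 0.57. Irx1 and Irx2 were low in cortex (means of 0.468 and 0.188 TPM) and ACB (0.496 and 0.0157 TPM) too. The values of this paragraph were not computed over the 14 regions without ACA, ACB, ENT and FRP.

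Differences between regions were tested on estimated counts with edgeR's quasi-likelihood test over all 70 libraries and 19980 genes. A gene was called when its Benjamini-Hochberg adjusted p was under 0.05 and its absolute log2 fold change over 1. Groups were averaged on the log scale, so contrasts of Irx5 that include ACA or FRP, with 0 counts, depend on the small count that the fit adds, and the TPM values above are the better guide to their size.

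In adult cortex (ACA, FRP and ENT) against the other adult regions, 2 of the 6 genes were called, both lower, where 16.1% of all genes were called. Irx3 fell by 5.46 on the log2 scale (log2 fold change -5.46 ± 0.41, SE; adjusted p = 3.9e-17) and Irx5 had a fitted change of -7.48 ± 0.62 (adjusted p = 6.1e-15). Rbl2 (-0.35 ± 0.03, adjusted p = 1.5e-13), Aktip (-0.33 ± 0.03, 3.2e-13) and Fto (-0.26 ± 0.03, 1.6e-10) were slightly lower in cortex without reaching the fold limit, and Rpgrip1l was at -0.01 ± 0.07 (adjusted p = 1). In ACB, 1 of the 6 was called (12.8% of all genes), Irx3 at -5.86 ± 0.47 (adjusted p = 2.1e-15). Irx5 held 2 counts over the 3 ACB libraries and could not be given a usable error by the edgeR fit; DESeq2 gave -5.44 (adjusted p = 1.3e-06) and limma on log2(TPM + 0.5) gave -2.32 (adjusted p = 2.8e-13).

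For the hypothalamus, the direction of the Iroquois genes depended on what it was compared with. Against all other adult regions, 1 of the 6 genes was called (8.84% of all genes): Irx5 at 1.40 ± 0.19 (adjusted p = 2.2e-08), with Irx3 at 0.40 ± 0.14 (adjusted p = 0.014). The ratios of mean TPM went the other way, 0.779 for Irx5 and 0.530 for Irx3, and the log average on the other side includes the 4 regions near 0. Without ACA, ACB, ENT and FRP on the other side, a choice made after seeing the data, 2 of the 6 were called and both were lower in the hypothalamus (11.6% of all genes): Irx3 at -1.68 ± 0.12 (adjusted p = 4e-17) and Irx5 at -1.05 ± 0.14 (adjusted p = 1.9e-08). Fto was slightly higher in the hypothalamus in both comparisons, at 0.21 ± 0.03 (adjusted p = 9.1e-10) and 0.15 ± 0.03 (adjusted p = 6.5e-06).

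In the hindbrain nuclei against all other adult regions, 2 of the 6 genes were called higher (7.84% of all genes called): Irx3 at 2.51 ± 0.12 (adjusted p = 6.4e-24) and Irx5 at 2.64 ± 0.17 (adjusted p = 1.4e-18), with mean TPM ratios of 1.92 and 1.94. Aktip (0.59 ± 0.03, adjusted p = 1.1e-23), Rpgrip1l (0.33 ± 0.06, 1.5e-05) and Fto (0.30 ± 0.03, 5.3e-13) were higher under the fold limit. Without the 4 low regions none of the 6 was called (6.86% of all genes), but Irx3 (0.92 ± 0.11, adjusted p = 1.6e-09), Irx5 (0.66 ± 0.14, 9.9e-05) and Aktip (0.52 ± 0.03, 2e-20) remained higher by adjusted p in edgeR's test.

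In the cerebellum and VTA, calls of the Iroquois genes also depended on the 4 low regions. In the lobules 2 of the 6 were called (18% of all genes), Irx3 at 2.18 ± 0.12 and Irx5 at 2.44 ± 0.16. Without the low regions none was called there (18.6% of all genes), with Irx3 at 0.46 ± 0.11 (edgeR, adjusted p = 0.00016) and Irx5 at 0.30 ± 0.13 (0.040). In CBN 2 were called (10.7% of all genes), Irx3 at 2.66 ± 0.17 and Irx5 at 2.65 ± 0.22. Without the low regions only Irx3 was called in CBN (1 of 6; 7.94% of all genes), at 1.23 ± 0.17 (adjusted p = 7.5e-08), with Irx5 at 0.89 ± 0.22 (0.0011). All 5 choroid plexus markers were called higher in CBN as well, at 3531 to 12709 TPM in sum over its 3 libraries, and their part in the CBN values was not tested. In VTA 2 were called (10.5% of all genes), Irx3 at 2.30 ± 0.17 and Irx5 at 1.91 ± 0.24, and none without the low regions (9.67% of all genes), where Irx3 was at 0.86 ± 0.18 (adjusted p = 0.00011) and Irx5 at 0.13 ± 0.24 (0.73). No direction is given for Irx5 in VTA, since its mean TPM there was 0.941 times that of all other regions and 0.721 times that of the others without the low regions, and limma on log2(TPM + 0.5) gave 0.29 (adjusted p = 0.24). The corresponding TPM ratios of Irx3 were 1.30 and 0.996. Without the libraries that stood apart, VTA replicate 1 among them, Irx3 in VTA was at 2.32 and Irx5 at 1.97 against all other regions.

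Of the genes present everywhere, none was called in the lobules, CBN or VTA. Under the fold limit, Rpgrip1l was lower in the lobules (-0.66 ± 0.06, edgeR adjusted p = 9.9e-15), and so were Aktip (-0.49 ± 0.03, 7.1e-23) and Fto (-0.23 ± 0.03, 2.3e-11). Aktip was higher under the fold limit in VTA (0.76 ± 0.05, adjusted p = 3.6e-19; 0.74 without the libraries that stood apart) and in CBN (0.51 ± 0.05, 9.2e-13). Fto in VTA was at 0.13 ± 0.05 in counts (adjusted p = 0.036) and at -0.17 in limma on log2(TPM + 0.5) (adjusted p = 0.051), so no direction is given for it.

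The embryonic groups were compared with the adult to see how the locus differed between stages. Stage cannot be told apart from sample batch, since no preparation batch in the study's sample overview held samples of both stages, and the batches are not tied there to the replicate numbers of the libraries. Irx3 and Irx5 were at their highest of all groups in the embryonic midbrain: Irx3 at 46.6 and 68.0 TPM and Irx5 at 27.8 and 44.5 TPM in its 2 libraries. In the embryonic hindbrain Irx3 was at 21.3, 38.4 and 22.9 TPM and Irx5 at 11.4, 20.3 and 17.3 TPM. Their levels were lower in THy-PHy, at 6.18, 6.43 and 3.08 TPM for Irx3 and 5.52, 4.32 and 2.33 TPM for Irx5, and the single forebrain library had 1.62 TPM of Irx3 and 0.426 TPM of Irx5. The libraries of M and H did not overlap those of THy-PHy for either gene.

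Within the embryo, THy-PHy differed from M and H for 2 of the 6 genes, where 3.18% of all genes were called. Irx3 was at -2.96 ± 0.26 (edgeR, adjusted p = 1.9e-12) and Irx5 at -2.61 ± 0.31 (adjusted p = 2.5e-08), with mean TPM of 5.23 against 42.4 for Irx3 and 4.06 against 26.3 for Irx5. Of the 5 choroid plexus markers (Ttr, Folr1, Kl, Clic6, Otx2), 4 were called lower in THy-PHy too (median -4.32), their sum being at 14.7 to 34.9 TPM in its libraries and at 137 to 2013 TPM in those of M and H; their part in the Iroquois difference was not tested. Without the 5 libraries that stood apart these were -2.56 (adjusted p = 9.7e-06) and -2.16 (adjusted p = 0.004), with THy-PHy and H then at 1 library each. Fto (-0.02 ± 0.06), Rbl2 (-0.02 ± 0.07), Aktip (0.06 ± 0.06) and Rpgrip1l (-0.25 ± 0.14) did not pass the test in this comparison.

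Embryonic against adult brain, 3 of the 6 genes were called, where 37.7% of all genes were. Irx3 was higher in the embryo (1.97 ± 0.14, adjusted p = 2.6e-18; mean TPM 22.9 against 7.02), and so was Irx5 (2.45 ± 0.22, 4.8e-14; 14.3 against 2.86 TPM). Aktip was lower (-1.14 ± 0.04, adjusted p = 2.6e-32; 84.9 against 160 TPM), and no embryonic library but THy-PHy replicate 2 (130 TPM) and H replicate 2 (114 TPM) reached the lowest adult library of 106 TPM. Rbl2 (-0.88 ± 0.04, 1.5e-27) and Fto (-0.39 ± 0.03, 3.9e-15) were lower under the fold limit. On log2(TPM + 0.5) in limma, Aktip was at -0.89 (adjusted p = 2e-19), under the fold limit, and Rbl2 at -0.41 (7.3e-08). Without the libraries that stood apart, 4 of them embryonic, the same 3 genes were called, Irx3 at 1.86, Irx5 at 2.49 and Aktip at -1.13.

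In the matched comparison of THy-PHy with the adult hypothalamus, 1 of the 6 was called (38.2% of all genes). Aktip was at -1.09 ± 0.06 (edgeR, adjusted p = 8.7e-23), with 88.5, 130 and 88.1 TPM in THy-PHy against 137 to 190 TPM in the 14 adult hypothalamic libraries, and at -0.69 in limma on TPM. Irx5 (0.95 ± 0.25, adjusted p = 0.00075) and Irx3 (0.63 ± 0.21, 0.0079) were higher and Rbl2 (-0.89 ± 0.06, 4.7e-19) and Fto (-0.50 ± 0.06, 1.6e-11) lower under the fold limit. Without the 5 libraries that stood apart, which left 1 THy-PHy library, 3 were called, with Irx5 at 1.31 (adjusted p = 0.002) and Rbl2 at -1.02 (adjusted p = 8.3e-16). Leaving out 1 library at a time gave 2 calls without ARH replicate 3, LHA replicate 3, VMH replicate 2 or THy-PHy replicate 3, with Irx5 added.

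In the embryonic hindbrain against the adult hindbrain nuclei, 3 of the 6 were called (44% of all genes). Irx3 (1.44 ± 0.19, adjusted p = 3.4e-09) and Irx5 (1.94 ± 0.23, 3.2e-10) were higher and Aktip lower (-1.74 ± 0.06, 6.5e-30), with 87.4, 114 and 63.2 TPM of Aktip in H against 195 to 243 TPM in 10 adult libraries. Rbl2 (-0.82 ± 0.06, 2.8e-17) and Fto (-0.77 ± 0.06, 4.3e-17) were lower under the fold limit; on TPM in limma Rbl2 was at -0.17 (adjusted p = 0.15). Without the 5 libraries that stood apart, which left 1 library of H, Irx3 was at 0.83 (adjusted p = 0.0076) and no longer called, Irx5 at 1.72 and Aktip at -1.77.

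**Figure D4:**
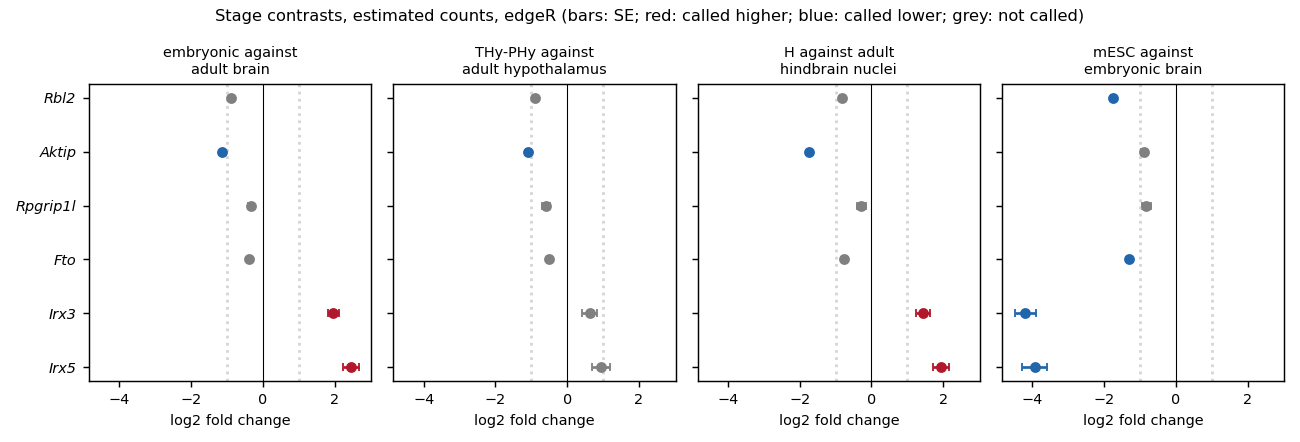
Log2 fold changes of the 6 locus genes (horizontal axis, estimated counts, edgeR; bars are SE, dotted lines mark 1 and -1) in 4 comparisons. Called genes are red where higher and blue where lower: Irx3 and Irx5 at 1.97 and 2.45 in embryonic against adult brain, Aktip at -1.14, -1.09 and -1.74 in the 3 comparisons of stage, and Irx3, Irx5, Rbl2 and Fto in mESC.

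No direction can be given for Rpgrip1l between stages, since counts and TPM differed in sign. On estimated counts it was at -0.34 ± 0.07 (edgeR, adjusted p = 5.7e-05) in embryonic against adult brain, -0.59 ± 0.12 (2.6e-05) in the hypothalamus and -0.28 ± 0.12 (0.038) in the hindbrain. On log2(TPM + 0.5) in limma it was at 0.21 (adjusted p = 0.15), 0.28 (0.28) and 0.36 (0.15).

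The stage difference itself was compared between hindbrain and hypothalamus. None of the 6 genes was called (9.84% of all genes), but 4 passed the adjusted p of edgeR's test: Aktip at -0.64 ± 0.08 (adjusted p = 1.7e-08), Fto at -0.26 ± 0.08 (0.0073), Irx3 at 0.81 ± 0.30 (0.036) and Irx5 at 0.99 ± 0.36 (0.033). Without the 5 libraries that stood apart, Irx3 was at 0.07 (adjusted p = 1) and Irx5 at 0.40 (0.71), while Aktip was at -0.70 (6.6e-05) and Fto at -0.29 (0.027), with 1 library left in each embryonic group. Leaving out some single libraries of the 5 raised the values: Irx3 was at 1.02 and Irx5 at 1.07 without THy-PHy replicate 2, and Irx5 was at 1.07 without H replicate 1. H replicate 2 had the highest TPM of both genes in H, and THy-PHy replicate 3 the lowest in THy-PHy. Values without either of these alone are not given here. On log2(TPM + 0.5) in limma, Aktip was at -0.63 (adjusted p = 0.00069) and Irx5 at 0.97 (0.029), while Irx3 at 0.76 (0.051) and Fto at -0.16 (0.36) missed the threshold. On log2(TPM + 0.1) Irx5 missed it too, at 0.93 (adjusted p = 0.095 in limma). DESeq2 called Irx5 (1.02, adjusted p = 0.018), and leaving out 1 library at a time gave 0 to 2 calls; both Irx3 and Irx5 were called without H replicate 3 or THy-PHy replicate 2.

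Cell makeup moved with stage in the same libraries. The 4 oligodendrocyte markers were at 16.0 to 20.6 TPM in sum in the embryonic groups and at 478 to 11488 TPM in the adult regions, and all 4 were called lower in the embryo. The 5 markers of dividing progenitors (Mki67, Top2a, Ccnb1, Cdk1, Ube2c) were at 226 to 1408 TPM in the embryonic groups and at most 19.3 TPM in the adult regions, and all 5 were called higher. Their part in the stage differences of the locus genes was not tested.

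The mESC clones had the lowest group means of Fto, Aktip, Rbl2 and Rpgrip1l. Fto was at 33.4 to 37.0 TPM in the 4 mESC libraries, against 89.3 to 158 TPM in the 9 embryonic libraries, and Rbl2 was at 5.59, 6.26, 6.99 and 4.08 TPM, against 24.3 to 40.8 TPM. Against embryonic brain 4 of the 6 were called, all lower (55.8% of all genes called): Irx3 (-4.20 ± 0.29), Irx5 (-3.93 ± 0.35), Rbl2 (-1.75 ± 0.06) and Fto (-1.30 ± 0.06). Aktip was at -0.90 ± 0.06 (edgeR, adjusted p = 8e-21) and Rpgrip1l at -0.82 ± 0.12 (2.4e-08). Both were past the fold limit in limma on TPM, at -1.64 and -1.01. Without the libraries that stood apart the 4 called genes were at -4.05, -3.93, -1.67 and -1.30, in the same order. Irx3 was still detected at 9 to 16 counts and Irx5 at 6 to 12 counts in each mESC library, above every cortical and ACB library.

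The other genes of each member's pathway, from lists chosen with earlier results of these data known, were read in the same fits. Of the 6 Iroquois genes, 5 were called lower in cortex (median log2 fold change -4.73, against -0.03 to 0.02 over all genes in these comparisons; 16.1% of all genes called) and 4 lower in ACB (-4.27; 12.8%). Against all other adult regions, 6 were called higher in the hindbrain nuclei (2.58, 7.84% of all genes) and 6 in VTA (2.10, 10.5%). There were 5 in CBN (2.66, 10.7%), 4 in the lobules (1.91, 18%) and 1 in the hypothalamus (0.23, 8.84%). Among the VTA calls were Irx5, at 0.941 times the mean TPM of all other adult regions, and Irx4, whose levels are given below. No direction is given for either in VTA. The hypothalamic call was Irx5, whose mean TPM ratio was 0.779. Without the 4 low regions on the other side, 2 of the 6 were called higher in the hindbrain nuclei (median 0.79, 6.86% of all genes). In VTA 2 were called higher as well (0.88, 9.67%), and Irx2 and Irx4 were the genes in both cases. Irx4 was at 0 TPM in every cortical, ACB and hypothalamic library. Its contrasts with these regions depend on the small count that the fit adds. Mean Irx4 was 0.313 TPM in VTA, 0.366 TPM in the lobules, 1.43 TPM in CBN and 3.96 TPM in the hindbrain nuclei. In CBN 4 were then called higher (1.30; 7.94%), in the lobules 1 lower (Irx6; median of the family 0.31; 18.6%), and in the hypothalamus 4 lower (-1.54; 11.6%). In embryonic against adult brain, where 37.7% of all genes were called, 4 were called higher, the paralogs being Irx1 (1.38 ± 0.19, edgeR adjusted p = 3e-09) and Irx2 (1.92 ± 0.31, 2.6e-07). THy-PHy had 4 of the 6 lower than M and H (3.18% of all genes), with Irx2 at -3.85 ± 0.27 and Irx1 at -3.39 ± 0.25.

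Around Fto, the partner eraser Alkbh5 was at -0.30 ± 0.04 (edgeR, adjusted p = 9.1e-09) in embryonic against adult brain, and neither eraser was called. In that comparison 37.7% of all genes were called, 3565 of 19980 higher and 3971 lower. The counts of the lists around Fto, Rpgrip1l, Aktip and Rbl2 are to be read against these shares. Among 10 subunits of the adenosine methyltransferase machinery, 1 was called, Rbm15b at 1.79 ± 0.03, and among 8 readers 4 were called higher, led by Igf2bp1 (9.84 ± 0.10) and Igf2bp2 (6.84 ± 0.13), oncofetal RNA-binding proteins. Between adult regions none of the 10 writers and 2 erasers was called in hypothalamus, hindbrain nuclei, cortex, CBN, ACB or VTA, and 1 writer in the lobules. The shares of all genes called were 8.84%, 7.84%, 16.1%, 10.7%, 12.8% and 10.5% in that order, and 18% in the lobules. With so few genes listed, these counts are not read as a result about the list.

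Around Rpgrip1l, 20 of 21 genes of the ciliary transition zone were tested, and 1 was called higher (Rpgr, 1.47 ± 0.06) and 1 lower (Ahi1, -1.26 ± 0.12) in embryonic against adult brain. In the adult hypothalamus 2 of the 20 were called higher, where 8.84% of all genes were called and 1220 of 19980 were called higher. These were Ahi1 (1.95 ± 0.08) and Rpgrip1 (1.65 ± 0.12), the paralog of Rpgrip1l. Around Aktip, 2 of 8 genes of the Hook complex were called lower in embryonic brain, Aktip itself and Fam160a1 (-1.26 ± 0.29, edgeR adjusted p = 0.0001). Around Rbl2, 6 of 13 genes of the pocket protein and DREAM complexes were called higher in embryonic brain, where 3565 of 19980 genes were called higher. Rbl1 (3.08 ± 0.08), Rb1 (1.16 ± 0.07) and Mybl2 (4.14 ± 0.11) were among the 6, while Rbl2 itself was at -0.88 ± 0.04. The median log2 fold change was 0.92 for these 13 genes, 0.15 for the ciliary list and -0.16 for the Hook list, against 0 over all genes.

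Of the 13 tested of 15 genes along the locus from Tox3 to Slc6a2, 4 were called higher and 2 lower in embryonic against adult brain (median 0.45), near the 37.7% of all genes called. Beside Irx3 and Irx5, Tox3 (3.64 ± 0.11) and Mmp2 (3.07 ± 0.11) were higher, and beside Aktip, Lpcat2 (-1.37 ± 0.11) was lower. Chd9, next to Rbl2 on its far side, was at -0.58 ± 0.08 (edgeR, adjusted p = 2.5e-08).

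The transcripts behind the gene levels differed in makeup between genes. In adult libraries Fto-201 held 78.3% and the non-coding Fto-205 14.2% of Fto TPM, and Irx5-201 held 93.8% of Irx5 TPM. Irx3 was divided between Irx3-202 (57.4%) and Irx3-201 (42.6%), Aktip between Aktip-205 (37.0%), Aktip-201 (30.3%) and others, and Rbl2 between Rbl2-210 (27.1%), the retained-intron transcript Rbl2-207 (20.9%), Rbl2-201 (20.6%) and others. Rbl2-207 (91112243 to 91115826) lies within the annotated span of Aktip on the opposite strand, and since no strand setting of the quantification is given, reads of the overlapping stretch cannot be told apart.

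The 5 libraries that stood apart did so at 3 genes of the locus at once. Rbl2-207 held 46.1% to 83.7% of Rbl2 TPM in them and at most 36.1% in the other 65, and the non-coding Aktip-213 held 19.6% to 48.8% of Aktip TPM and at most 11.9% in the others. VTA replicate 3 was the next library in each case. H replicate 1 and VTA replicate 1, with the highest shares of Fto-205 and Rbl2-207, also had the highest mitochondrial shares, 22.6% and 39.6%. The part of these features in the gene levels was not tested beyond leaving the libraries out.

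**Figure D5:**
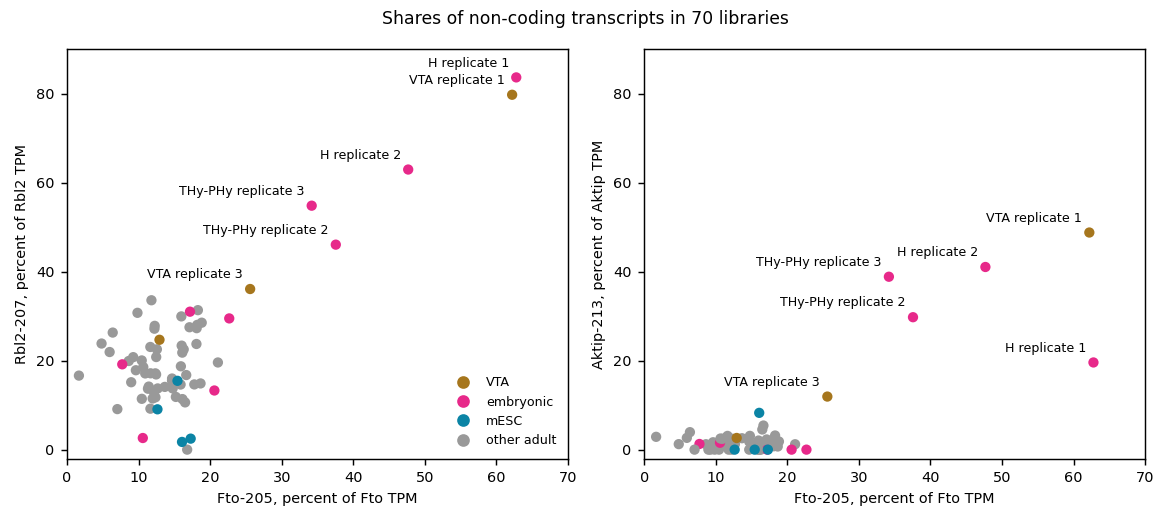
Percent of Fto TPM held by Fto-205 (horizontal axes) against the percent of Rbl2 TPM held by Rbl2-207 (left) and of Aktip TPM held by Aktip-213 (right), 1 point per library, 70 libraries. The 5 libraries of VTA, H and THy-PHy that stood apart lie at 34.2% or more on the horizontal axis, and the other 65 at 25.6% or less.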

How the data were processed

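RNA was extracted from tissue punches or cells, and libraries of mRNA that keep the strand were read from one end for 33 cycles on a HiSeq2000. Per the labels and the study's methods, the authors made reads with CASAVA 1.8.2 and quantified transcripts with Kallisto against the GRCm38 cDNA set; the strand setting is not given in the sources used here. The authors deposited estimated counts and TPM per transcript and TPM per gene, the sum over the gene's transcripts. All columns of these tables were used.

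Levels, shares and correlations used the deposited gene and transcript TPM as they were. For tests, the authors' estimated counts were added up over each gene's transcripts and taken to whole numbers; a gene was found for 107987 of 109282 transcripts, and the rest held 0.42% to 0.77% of counts. edgeR 4.0.16 (TMM scaling, filterByExpr, quasi-likelihood test with Benjamini-Hochberg adjustment; R 4.3.3) was fitted to all 70 libraries with 1 mean per group, and 13 contrasts were read from it, averaging groups with equal weight; SE is the log2 fold change divided by the square root of F. In counts simulated for embryonic against adult brain, with 19980 genes and a planted log2 change of 2, 191 of 191 changed and tested genes and 0 unchanged genes were called. Alternatives were DESeq2 1.42.0, limma 3.58.1 on log2(TPM + 0.5) and log2(TPM + 0.1), and relative log expression scaling. Further ones were no filter on low counts, the fit without mESC and a replicate block. Libraries were also left out 1 at a time, with the genes tested and the dispersion trend of the full fit kept. In the tests these were libraries of the named side, and of the other side only where it held few groups. The alternatives chosen after seeing the data were leaving out the 5 libraries with over 30% of Fto TPM in Fto-205, for tests and for profiles, and leaving ACA, ACB, ENT and FRP out of the other side of regional contrasts or out of the profiles. With 1 library left in a group, that library was taken to vary like the other groups.

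The members and all gene and marker lists were chosen with earlier results of these data known. One gene of the oligodendrocyte marker list is not reported here, and the list was summed and counted without it. The text names the 6 genes, their paralogs, genes along the locus, up to 2 called genes per list and contrast with the greatest change, and the 3 genes nearest each member in profile; Rb1, Alkbh5, Rpgrip1, Rbl1 and Irx1, Irx2, Irx4 and Irx6 count as paralogs or partners. Replicate numbers were checked for pairing by the correlation of deviations from group means. Its median was 0.0127 over 436 pairs of libraries with the same number and -0.0057 over 1095 pairs with different numbers. It was over 0.1 in 40 of the former (highest 0.318) and 51 of the latter (highest 0.227). By the medians the numbers gave little sign of pairing. Mice shared by libraries of different numbers were not tested for, so the check does not clear the tests of shared mice.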

Additional observations from a re-analysis of the deposited data

Results flagged for a closer look

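Among the 30 combinations of a gene and a group of 4 libraries (5 such groups), 1 held a library far from the others: Rbl2 in FL replicate 1 was at 39 TPM against 35.2, 35.2 and 35.7 TPM in the other FL libraries. Chance alone places about 1 in 20 such groups past this limit.

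The embryonic-adult difference differed between hindbrain and hypothalamus by edgeR's test of the difference itself for 4 of the 6 genes, none past the fold limit. The log2 difference was -0.64 for Aktip (adjusted p = 1.7e-08), -0.26 for Fto (0.0073), 0.81 for Irx3 (0.036) and 0.99 for Irx5 (0.033). On log2(TPM + 0.5) in limma, Aktip was at -0.63 (adjusted p = 0.00069), Irx5 at 0.97 (0.029), Irx3 at 0.76 (0.051) and Fto at -0.16 (0.36); on log2(TPM + 0.1) Irx5 was at 0.93 (0.095), so Aktip alone passed in both. Irx3 and Irx5 were at 0.07 and 0.40 when all 5 libraries that stood apart were left out, which leaves 1 library in each embryonic group. They were at 1.02 and 1.07 without THy-PHy replicate 2 alone. Values without H replicate 2 or THy-PHy replicate 3 alone are not given here, and the cause was not tested.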

How the results depend on the processing

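Across the alternatives run on all 13 contrasts, most combinations of gene and contrast kept their side of the call threshold, and called ones their direction: all 78 without a filter on low counts, all 72 that could be computed without mESC, 76 of 78 with DESeq2, 77 with relative log expression scaling and 71 with limma on either pseudocount. With the replicate number as a block, although the numbers gave little sign of pairing by the medians, all 78 held. The replicate block gave 3 called genes in embryonic against adult brain, as without it.

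The number of locus genes called moved by over 1.5 times as follows. For THy-PHy against adult hypothalamus (1 in the report) it was 0 in limma on either pseudocount, 3 without the 5 libraries that stood apart, and 1 to 2 when each of 17 libraries was left out. For the difference of the stage effect (0) it was 1 with DESeq2 and with relative log expression scaling, and 0 to 2 over 30 libraries left out. For the adult hypothalamus (1) it was 0 in limma on either pseudocount and 2 without the low regions, where Irx3 (-1.68) and Irx5 (-1.05) turned from higher to lower. Without the low regions it was 0 for hindbrain nuclei, 0 for the lobules, 1 for CBN and 0 for VTA; in limma it was 1 for VTA and, as with DESeq2, 2 for ACB. Smaller moves were from 3 to 2 in limma for embryonic against adult brain (Aktip at -0.89), from 4 to 6 in limma for mESC (Aktip at -1.64, Rpgrip1l at -1.01), and from 3 to 2 without the 5 libraries for the embryonic hindbrain (Irx3 at 0.83). In the other contrasts, leaving out 1 library of the named side, or of the other side where it held few groups, did not move the count. That was 8 libraries for embryonic against adult brain, 9 for cortex, and 3 each for CBN, ACB and VTA. No library on the side of the other adult regions was left out in the regional contrasts.

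The number of gene pairs at r = 0.7 (2 in the report) was 1 with log2(TPM + 1), 1 without a logarithm, 1 with Spearman's rho, 1 over the 14 regions without the low regions, 4 with CPM, 9 outside the cerebellum, and 1 to 3 over the 57 adult libraries left out. Irx3 and Irx5 stayed at 0.79 to 0.98 under all of these. At these depths Irx3 and Irx5 were limited by counting in cortex and ACB, where no library had over 5 counts, and differences among these 4 regions were not detectable.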
